A study of Mus musculus with 4 samples.

Results

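The genes that copy DNA and supply its building blocks were followed in mouse liver as a set of 46 genes, chosen by name: the pre-replication complex and the helicase, the polymerases and primase, the sliding clamp and its loader, single-strand binding and lagging-strand proteins, enzymes of deoxynucleotide supply, the proteins that carry DNA methylation through replication, and E2f1 and E2f2. They were represented by 68 of the 41174 probes of the array and by 46 of its 27669 gene names. All animals were male C57BL/6 mice on a high-fat diet with free access to food and water. The 4 control mice received a scrambled antisense oligonucleotide (ASO) and the 4 others an ASO directed against Plin2, the gene of a lipid droplet coat protein. Both were injected into the peritoneum at 25 mg/kg, 2 times a week for 4 weeks, and the animals' ages are not given in the sources used here. RNA of whole liver was measured on 4 arrays of 2 colours, each with 1 mouse of each group: control mice 1, 2, 4 and 5 in Cy5 (red) against mice 6, 7, 9 and 10 in Cy3 (green) on arrays 1 to 4. Dyes were not swapped, so a difference between the groups and a difference between the dyes cannot be told apart. Every ratio below is a log2 ratio of the livers labelled Plin2-ASO over the control livers, so that a negative value is a lower signal in the former.

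The target of the oligonucleotide, Plin2, had a ratio above 0 on every array. It was 0.24, 0.15, 0.83 and 0.36 on arrays 1 to 4, a mean of 0.40 ± 0.15 (moderated SE, n = 4 arrays) with an adjusted p of 0.156 (limma), so a lower level of the target was not seen. The directions given here rest on the dyes named in the labels, and they would be mirrored if the labels of the groups were exchanged. Array 3 stood apart from the others: 7.61% of its spots carried an outlier mark, where the other arrays had between 1.5% and 3.83%, and its median raw signal was 244 in green and 637 in red. Over the 16129 genes measured on every array its ratios correlated with those of arrays 1, 2 and 4 at r = 0.47, 0.37 and 0.14, while the other pairs of arrays gave 0.67 to 0.82 (genes share the arrays and are not independent replicates). Results are therefore given with and without array 3. Of the defining hepatocyte markers 7 of 8 were measured, Alb among them. Their summed linear signal was 628155 to 727425 in the control livers and 390611 to 530833 in the livers labelled Plin2-ASO. The brightest markers weigh most in such a sum. Array 1 had 6 of the 7 measured, so its sums leave out a marker that the other arrays include. Of the 7, only Alb passed the test at an adjusted p under 0.05 (limma), where 6.08% of all genes tested were lower at that level. The median log2 ratio of the 7 was -0.20, with 6 below 0 and 1 above. In RNA of whole liver, fewer cells of a type and less RNA per cell cannot be told apart.

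Replication starts at sites bound by the origin recognition complex, where Cdc6 and Cdt1 load the ring of Mcm2 to Mcm7 that later becomes the core of the replicative helicase. Primase and DNA polymerase alpha begin each new strand, the clamp loader places the Pcna ring, and polymerases delta and epsilon extend the strands with deoxynucleotides made by ribonucleotide reductase and thymidylate synthase. Hepatocytes of an adult liver are mostly quiescent. Many of these genes are transcribed late in G1 phase under E2F factors, which bind a short motif close to the start site.

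The sequences of the promoters are shown first. The genes were chosen by name and not by sequence, but many are known to be transcribed under E2F factors. The share of members with an E2F word near the start site is therefore not independent of that choice. RefSeq windows of GRCm38.p6, from 250 bases before to 50 bases after a start site, were found for 41 of the 46 members; Mcm4, Gmnn, Prim2, Pole and Rfc2 had none. Words of 8 letters (TTTCCCGC, TTTGGCGC, TTTCGCGC and TTTGCCGC, on both strands) are in capitals. The first 4 genes below fell in the livers labelled Plin2-ASO, and Pola1 and Orc3 carry a word but did not pass the test. Mcm7 and Uhrf1 have more than 1 start site, and the stretch of each belongs to the one with a word.

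Mcm6, bases -120 to -1 from the start, GRCm38.p6 chr1:128359706-128359825, minus strand: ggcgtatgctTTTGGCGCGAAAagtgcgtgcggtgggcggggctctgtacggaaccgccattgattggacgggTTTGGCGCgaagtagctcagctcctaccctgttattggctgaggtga

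Mcm5, bases -170 to -71 from the start, GRCm38.p6 chr8:75109339-75109438, plus strand: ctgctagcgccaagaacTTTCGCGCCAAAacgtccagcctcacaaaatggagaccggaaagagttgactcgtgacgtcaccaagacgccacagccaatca

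Mcm7, bases -180 to -61 from the start, GRCm38.p6 chr5:138171944-138172063, minus strand: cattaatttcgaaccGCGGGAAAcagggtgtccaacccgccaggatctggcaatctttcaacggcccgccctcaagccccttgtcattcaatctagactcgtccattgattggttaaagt

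Uhrf1, bases -200 to -101 from the start, GRCm38.p6 chr17:56304113-56304212, plus strand: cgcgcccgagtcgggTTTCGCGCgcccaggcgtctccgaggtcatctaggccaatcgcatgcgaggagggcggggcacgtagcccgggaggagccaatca

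Pola1, bases -150 to -31 from the start, GRCm38.p6 chrX:93632186-93632305, minus strand: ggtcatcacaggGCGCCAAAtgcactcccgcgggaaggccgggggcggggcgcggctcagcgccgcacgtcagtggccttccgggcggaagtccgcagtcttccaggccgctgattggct

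Orc3, bases -60 to -1 from the start, GRCm38.p6 chr4:34614943-34615002, minus strand: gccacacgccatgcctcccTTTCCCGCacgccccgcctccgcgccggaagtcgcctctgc

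The Mcm6 stretch held 3 words. The first is followed by one on the opposite strand that shares 4 of its bases, so that they are read as 1 run, and the third begins at base -47 from the start site. Mcm5 likewise held 1 run made of a word on each strand that share 4 bases. A window with at least 1 word was found for 16 of 41 members (39.0%), for 481 of the 11758 tested genes that have a window (4.09%) and for 704 of all 27025 genes with one (2.61%). Among the members that fell, 9 of 16 with a window had a word: Mcm3, Mcm5, Mcm6, Mcm7, Cdt1, Pold1, Uhrf1, Dnmt1 and E2f2. Among those tested and not called it was 3 of 21, namely Orc3, Pola1 and Rfc3, and all 4 members that could not be tested had one. Over all genes that fell, 50 of 808 with a window carried a word (6.19%). The CCAAT box, searched as CCAAT on both strands, was in the window of 25 of 41 members (61.0%) and of 42.2% of the tested genes. The cell-cycle homology region, searched as TTTGAA on both strands, was in 7 of 41 members (17.1%) and 15.5% of the tested genes. These are matches of letters in reference windows, not measured binding, and the shares were not tested.

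The probes that read the results are 60 bases long. Those of Mcm3, a member that fell on each array, and of Pcna, whose sign differed on array 3, are given as deposited.

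Mcm3, probe A_52_P364776, mm7 chr1:21000880-21001396: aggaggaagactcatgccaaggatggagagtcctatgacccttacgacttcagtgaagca

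Pcna, probe A_51_P396351, mm7 chr2:131990537-131990674: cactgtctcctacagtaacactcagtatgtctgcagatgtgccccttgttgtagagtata

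The Mcm3 probe maps to a stretch of 517 bases and the Pcna probe to one of 138 bases, so each has its 60 bases split over more than 1 block of the genome. Positions are those of the files, and no annotation of that build was used here.

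Of the 46 members, 42 were tested, 41 of them on 4 arrays. In the livers labelled Plin2-ASO 18 of these fell (42.9%), where 6.08% of the 18041 genes tested fell. None rose, where 3.69% of all genes rose. No member rose at an unadjusted p under 0.05 either, while 22 fell at that level (limma). Of all 18041 genes, 2827 fell and 2031 rose at that unadjusted level. The 18 members were 1.49-fold to 4.08-fold lower. The median log2 ratio of the tested members was -0.55, against -0.03 over all genes tested, with 34 members below 0 and 8 above. Cdc6, Orc1 and Pole2 did not pass the filter on background. Lig1, the ligase that seals lagging-strand fragments, was measured on arrays 2 and 4 alone, at -0.18 and 0.20, and was not tested.

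**Figure D1:**
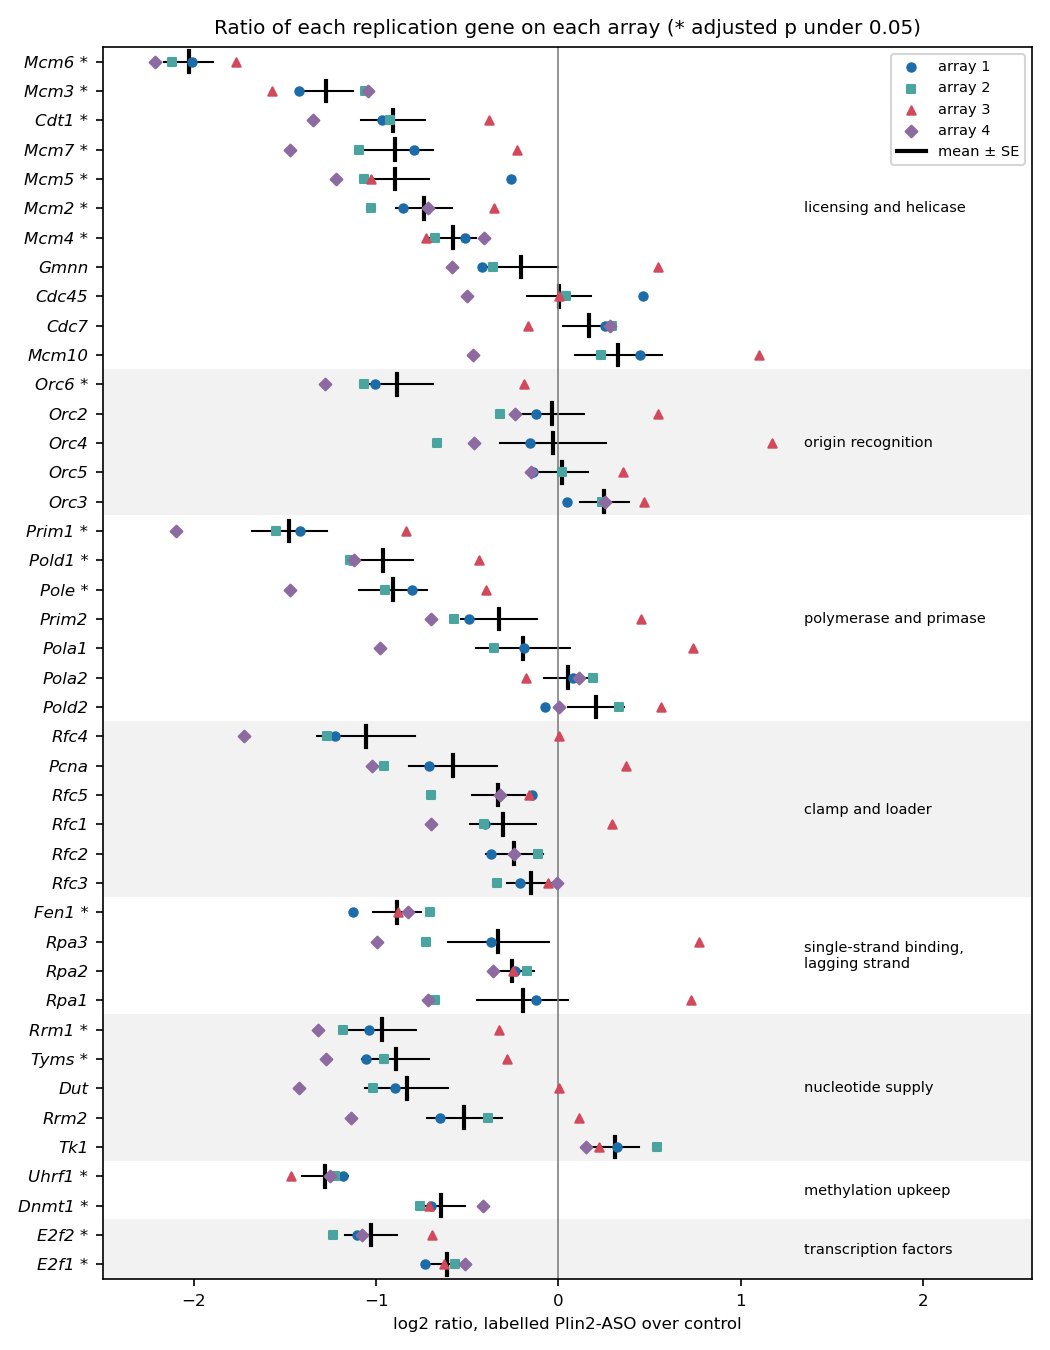
Log2 ratio (horizontal axis, livers labelled Plin2-ASO over control) of the 42 tested members on each array (coloured symbols), grouped by role, with the mean and its moderated SE as a black mark and line. An asterisk marks an adjusted p under 0.05 (limma): 18 members lie below 0 with one, and the symbols of array 3 lie to the right of the others for many genes.

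All 6 subunits of the Mcm2 to Mcm7 ring fell, where 6.08% of all genes tested fell, and each was below 0 on all 4 arrays. Mcm6 fell most among all members. Its normalized log2 signal was 12.70, 12.66, 12.30 and 13.22 in the control livers of arrays 1 to 4 and 10.69, 10.54, 10.53 and 11.01 in the livers labelled Plin2-ASO. The lowest control liver was thus above the highest liver of the other group. Its log2 ratio was -2.01, -2.12, -1.77 and -2.22, a mean of -2.03 ± 0.14 (SE, n = 4), or 4.08-fold lower (adjusted p = 0.00125, limma). Mcm3 read -1.42, -1.06, -1.57 and -1.04, a mean of -1.28 ± 0.15 (adjusted p = 0.00443, limma), and its signals did not overlap either, at 9.72 to 10.10 in the control livers and 8.45 to 8.98 in the others. The share of all genes tested whose signals do not overlap between groups was not counted. Among the members, Rfc2 and Rpa2 did not overlap either, although they were not called.

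The 4 other subunits of the ring fell by less. Mcm7 read -0.79, -1.09, -0.23 and -1.48, a mean of -0.90 ± 0.21 (adjusted p = 0.0406, limma). Mcm5 read -0.26, -1.07, -1.03 and -1.22 (-0.89 ± 0.18, adjusted p = 0.028, limma), and here array 1, not array 3, was the closest to 0. Both kept the lowest control liver above the highest liver labelled Plin2-ASO in normalized signal. Mcm2 read -0.85, -1.03, -0.35 and -0.71 (-0.74 ± 0.15, adjusted p = 0.0279, limma). Mcm4 read -0.51, -0.68, -0.72 and -0.41 (-0.58 ± 0.13, adjusted p = 0.036, limma). For Mcm2 and Mcm4 the signals of the groups overlapped although the ratio within each array was below 0. On each array Mcm6 was lower than the mean ratio of the 5 other subunits, by -1.24, -1.13, -0.99 and -1.24 on the log2 scale. The exact sign-flip permutation test gave p = 0.125, two-sided, which is the smallest that 4 arrays allow; Mcm6 was chosen for this comparison after its values were seen.

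**Figure D2:**
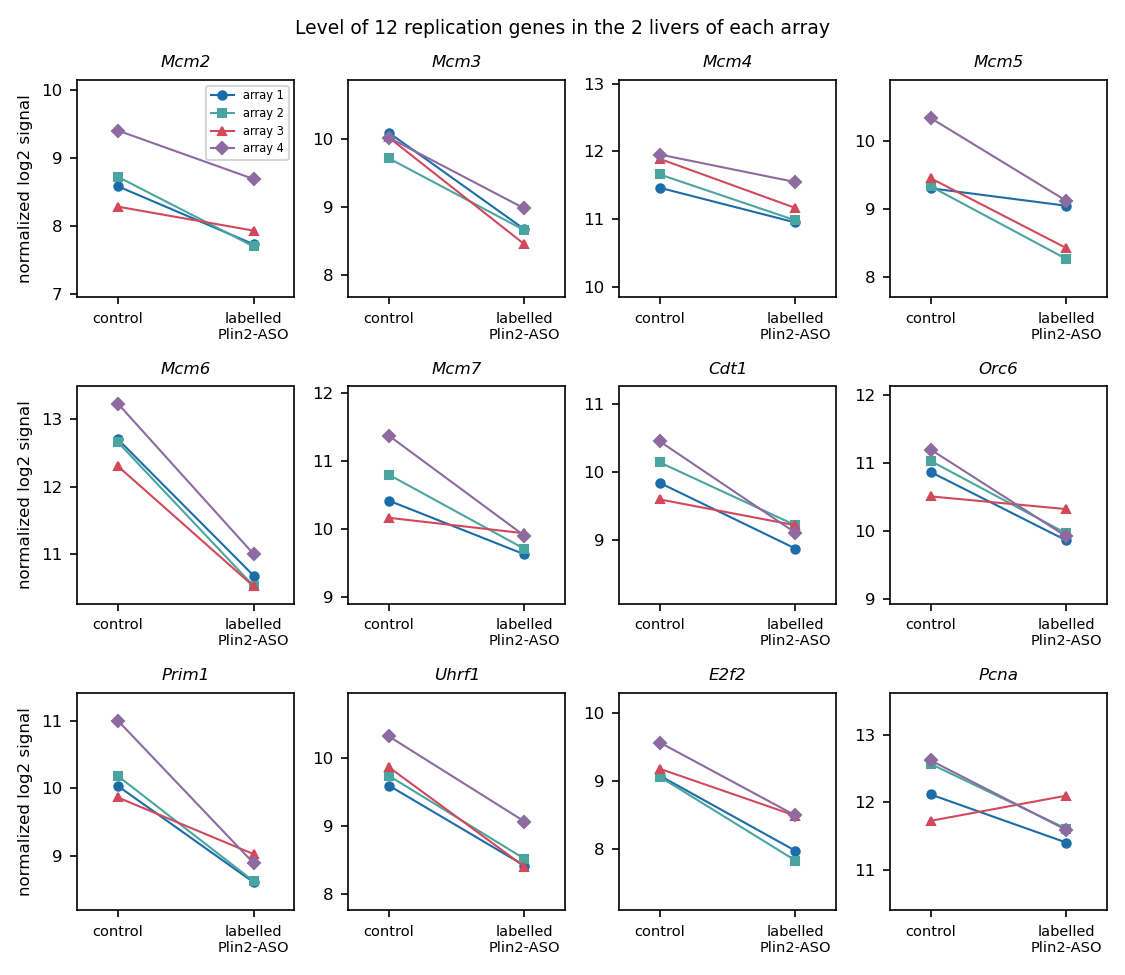
Normalized log2 signal (vertical axis, the same span in each panel) of 12 members in the control liver and in the liver labelled Plin2-ASO, with a line joining the 2 livers of an array. Every line of Mcm2 to Mcm7, Cdt1, Orc6, Prim1, Uhrf1 and E2f2 slopes down, and the line of array 3 slopes up for Pcna.

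The other licensing and firing factors moved less uniformly. Cdt1, which loads the ring with Cdc6, fell: it read -0.97, -0.93, -0.38 and -1.35, a mean of -0.91 ± 0.18 (adjusted p = 0.0237, limma). Its signal was 9.60 to 10.45 in the control livers and 8.87 to 9.21 in the others, without overlap. Geminin (Gmnn), the inhibitor of Cdt1, was not called, at -0.42, -0.36, 0.55 and -0.58 (mean -0.20 ± 0.20, adjusted p = 0.566, limma). Cdc45, a partner of the ring in the active helicase, had a mean of 0.00 ± 0.18 and was well above background on 1 array in the livers labelled Plin2-ASO and on 3 in the control livers, so its ratio is uncertain. Mcm10, which joins the helicase as it starts, had the highest mean of the members at 0.33 ± 0.24 (0.45, 0.24, 1.1 and -0.47; adjusted p = 0.423, limma). The kinase Cdc7 read 0.26, 0.30, -0.17 and 0.29 (mean 0.17 ± 0.14, adjusted p = 0.489, limma), and its second probe had a mean of -0.11, so its probes differed in sign. In all, 7 of the 11 tested genes of licensing and the helicase fell, where 6.08% of all genes tested fell.

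In the origin recognition complex 1 of 5 tested subunits fell, where 6.08% of all genes tested fell. It was Orc6, the smallest subunit, which read -1.01, -1.07, -0.19 and -1.28, a mean of -0.89 ± 0.20 (adjusted p = 0.035, limma). Its signals did not overlap between groups, with 10.51 to 11.20 in the control livers and 9.86 to 10.32 in the others. Orc2, Orc3, Orc4 and Orc5 had means of -0.03, 0.25, -0.03 and 0.02. The 95% interval of the mean was -0.45 to 0.38 for Orc2, -0.06 to 0.57 for Orc3, -0.72 to 0.66 for Orc4 and -0.31 to 0.36 for Orc5. Orc4 was the least certain, at -0.16, -0.67, 1.17 and -0.46, and its other probes had means of 0.09 and 0.21. On every array Orc6 was below the mean ratio of these 4 subunits, by -0.91, -0.89, -0.82 and -1.13 (p = 0.125, exact sign-flip permutation test, two-sided, the smallest possible). Orc6 was chosen for this comparison after its values were seen, so the shared sign is not independent of that choice.

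Among polymerases and primase 3 of 7 tested genes fell, each a catalytic subunit, where 6.08% of all genes tested fell. Prim1, the catalytic subunit of primase, had normalized signals of 10.04, 10.18, 9.87 and 11.00 in the control livers and 8.62, 8.63, 9.03 and 8.90 in the livers labelled Plin2-ASO. Its ratio was -1.42, -1.55, -0.83 and -2.10, a mean of -1.48 ± 0.21 (adjusted p = 0.00799, limma), and the groups did not overlap. Its partner Prim2, the large primase subunit, was not called: it read -0.49, -0.57, 0.45 and -0.70 (mean -0.33 ± 0.21, adjusted p = 0.359, limma). Pold1, the catalytic subunit of polymerase delta, read -1.14, -1.14, -0.43 and -1.12 (mean -0.96 ± 0.17, adjusted p = 0.0152, limma). Pold2, its accessory subunit, had a mean of 0.21 ± 0.15. Pole, the catalytic subunit of polymerase epsilon, read -0.80, -0.95, -0.40 and -1.47 (mean -0.91 ± 0.19, adjusted p = 0.0282, limma).

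Polymerase alpha, which extends the primer, was not called in either measured subunit. Pola1, its catalytic subunit, read -0.19, -0.35, 0.74 and -0.98 (mean -0.20 ± 0.26) and Pola2 had a mean of 0.05 ± 0.13. Subunits of 1 enzyme could be compared on the same array. Prim1 lay below Prim2 by -0.93, -0.98, -1.29 and -1.40, and Pold1 below Pold2 by -1.07, -1.48, -1.0 and -1.12, on every array and also on array 3. Both gave p = 0.125 in the exact sign-flip permutation test, two-sided, the smallest that 4 arrays allow. These were 2 of 7 such comparisons, chosen after the values were seen, and all 7 gave this p, which is then also the Benjamini-Hochberg value.

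None of the 6 genes of the clamp and its loader passed the test, although all 6 had means below 0. Of all genes tested 6.08% fell, so none of 6 is close to that share. Pcna, the sliding clamp, had signals of 12.12, 12.57, 11.73 and 12.62 in the control livers and 11.41, 11.61, 12.10 and 11.60 in the others. Its ratio was thus -0.71, -0.96, 0.37 and -1.02, with array 3 on the other side of 0, and the mean was -0.58 ± 0.24 (adjusted p = 0.179, limma). The probe has 10 spots on each array. The loader subunit Rfc4 read -1.23, -1.27, 0.00 and -1.73 (mean -1.06 ± 0.27, adjusted p = 0.0518, limma), a larger mean than that of most called members but with a wider spread. Rfc1, the large loader subunit, read -0.41, -0.41, 0.29 and -0.70 (mean -0.30 ± 0.18). Rfc2, Rfc3 and Rfc5 had means of -0.24 ± 0.16 (n = 3 arrays), -0.15 ± 0.13 and -0.33 ± 0.15.

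Fen1, the flap endonuclease that trims lagging-strand fragments, fell. It read -1.13, -0.71, -0.88 and -0.82, a mean of -0.88 ± 0.13 (adjusted p = 0.0102, limma), with signals of 9.20 to 9.70 in the control livers and 8.24 to 8.88 in the others. Array 3 lay within the range of the other arrays for this gene. The 3 subunits of the single-strand binding protein were not called. Rpa1, the large subunit, read -0.12, -0.68, 0.73 and -0.71 (mean -0.20 ± 0.25), and Rpa3 read -0.37, -0.72, 0.77 and -0.99 (mean -0.33 ± 0.28). Rpa2 had a narrower spread, with a mean of -0.25 ± 0.12 and a 95% interval of -0.54 to 0.03.

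In nucleotide supply 2 of 5 genes fell, where 6.08% of all genes tested fell. Rrm1, the large subunit of ribonucleotide reductase, read -1.04, -1.18, -0.32 and -1.32, a mean of -0.97 ± 0.19 (adjusted p = 0.0234, limma). Tyms, thymidylate synthase, read -1.06, -0.96, -0.28 and -1.27 (mean -0.89 ± 0.18, adjusted p = 0.0276, limma). For both, the lowest control liver lay above the highest liver labelled Plin2-ASO. Rrm2, the small reductase subunit, read -0.65, -0.38, 0.11 and -1.14 (mean -0.52 ± 0.21, adjusted p = 0.166, limma). Dut, which removes dUTP and yields the substrate of Tyms, read -0.90, -1.02, 0.01 and -1.42 (mean -0.83 ± 0.23, adjusted p = 0.0654, limma). Tk1, the salvage kinase of thymidine, was the gene of this role with a mean above 0. It read 0.32, 0.54, 0.22 and 0.15, a mean of 0.31 ± 0.13 (adjusted p = 0.186, limma), so it was above 0 on all 4 arrays without passing the test. Tyms was below Tk1 on every array, by -1.38, -1.50, -0.51 and -1.43 (p = 0.125, exact sign-flip permutation test, two-sided, the smallest possible). This pair too was chosen after the values were seen, so the shared sign is not independent of that choice.

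The 2 genes whose proteins copy DNA methylation onto the new strand both fell in RNA, where 6.08% of all genes tested fell. Uhrf1, which binds hemimethylated DNA and brings in the methyltransferase, had signals of 9.60, 9.74, 9.87 and 10.32 in the control livers and 8.42, 8.52, 8.40 and 9.07 in the livers labelled Plin2-ASO. Its ratio was -1.18, -1.22, -1.47 and -1.26, a mean of -1.28 ± 0.13 (adjusted p = 0.00283, limma), and array 3 was the lowest here. Dnmt1, the maintenance methyltransferase, read -0.70, -0.76, -0.71 and -0.41 (mean -0.65 ± 0.13, adjusted p = 0.0266, limma). The signals of Uhrf1 and Dnmt1 did not overlap between the groups.

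Both E2F genes among the members fell, where 6.08% of all genes tested fell. E2f2 read -1.11, -1.23, -0.69 and -1.08, a mean of -1.03 ± 0.14 (adjusted p = 0.00784, limma), with signals of 9.07 to 9.57 in the control livers and 7.83 to 8.50 in the others. E2f1 read -0.73, -0.57, -0.63 and -0.51 (mean -0.61 ± 0.12, adjusted p = 0.0269, limma). E2f1 signals overlapped between groups, with 9.88 to 10.70 in the control livers against 9.32 to 10.19.

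**Figure D3:**
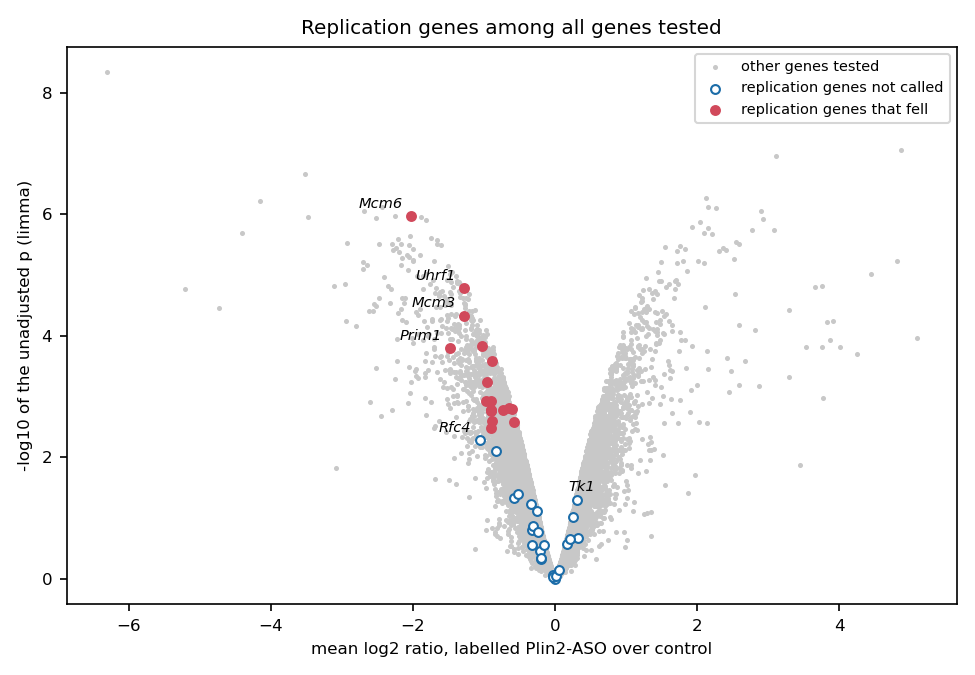
Mean log2 ratio (horizontal axis) against -log10 of the unadjusted limma p (vertical axis) for all 18041 genes tested in grey, with the 18 replication genes that fell in red and the 24 not called as open circles. The red points lie on the left side, from -0.58 (Mcm4) to -2.03 (Mcm6), and Tk1 is among the open circles to the right of 0.

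Several probes were kept for 11 members, and for 9 of them every probe had the same sign; Cdc7 and Orc4 were the exceptions. The second Uhrf1 probe gave a mean of -1.29 beside -1.28 for the one used. For Mcm3 it was -0.95 beside -1.28, and for Pold1 -0.81 beside -0.96. Tyms gave -0.79 beside -0.89, and Dut gave -0.67 beside -0.83. For E2f1 the second probe had a mean of -0.31 beside -0.61. On array 3 the Mcm3 probes read -1.57 and -0.52, so they differed there although both lay below 0.

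**Figure D4:**
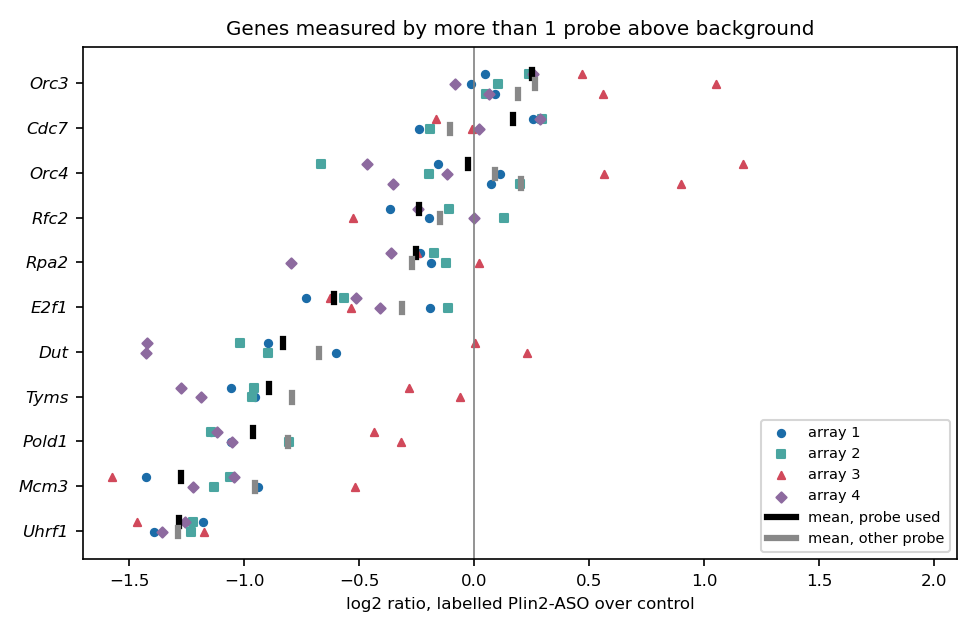
Log2 ratio (horizontal axis) of each kept probe of the 11 members with more than 1, with a symbol for each array and a bar for the mean, black for the probe used and grey for the others. Bars of a gene lie on the same side of 0 except for Cdc7 and Orc4.

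The number of members that passed differed with the array left out. The median log2 ratio of the members on arrays 1 to 4 was -0.50, -0.69, -0.17 and -0.71, and for all genes it was -0.04, -0.04, 0.01 and -0.02. The 18 members that fell, which a call across 4 arrays favours, were below 0 on each array, array 3 included. Of those not called, 5 of 23 were below 0 on array 3 and 16 to 19 of 24 on the others. Without array 3 there were 29 of 42 members that fell, where 20.3% of all genes fell. They were the same 18 and 11 more: Pcna, Rfc4, Rfc1, Dut, Rrm2, Prim2, Pola1, Gmnn, Rpa1, Rpa3 and Orc4. On the 3 other arrays Rfc4 had a mean of -1.41, Dut of -1.11 and Pcna of -0.90. Orc4, whose probes differed in sign, had an adjusted p of 0.0422 there (limma).

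With another array left out the count went down. Without array 1 it was 4 (Mcm3, Mcm5, Mcm6 and Uhrf1), where 1.15% of all genes fell, and without array 2 it was 4 (Mcm3, Mcm6, Prim1 and Uhrf1), where 1.24% fell. Without array 4 it was 7, where 3.42% fell: Mcm3, Mcm6, Prim1, Fen1, Uhrf1, Dnmt1 and E2f2. Mcm3, Mcm6 and Uhrf1 kept an adjusted p under 0.05 whichever array was left out, with highest values of 0.0407, 0.0125 and 0.0308 (limma). No member rose in any of these fits. Each of them rests on 3 arrays. Over the 41 members measured on every array, the ratios of array 3 correlated with those of arrays 1, 2 and 4 at r = 0.68, 0.60 and 0.44, and the other pairs at 0.81 to 0.89. This is a description across genes that share the arrays.

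**Figure D5:**
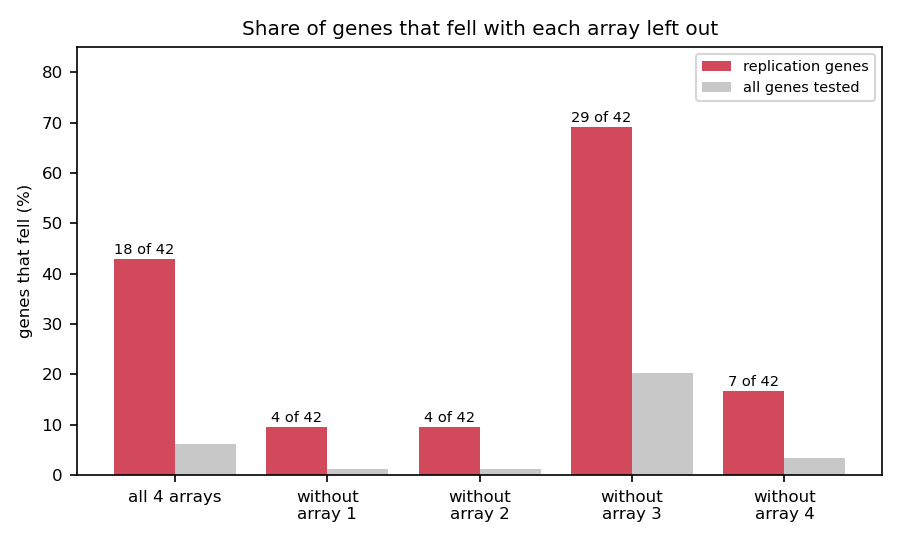
Percentage of the replication genes (red) and of all genes tested (grey) that fell, with all 4 arrays and with each array left out, starting at 0. The count of members is written over each red bar: 18 with all arrays, 29 without array 3 and 4 to 7 without another array.

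Other genes of replication, nucleotide metabolism and E2F control, listed apart from the members, gave a smaller share. Of 52 such genes 49 were tested, 11 fell (22.4%) and 1 rose, with a median log2 ratio of -0.23. Of all genes tested, 6.08% fell and 3.69% rose. Rrm2b, Ctps1 and E2f7 were not tested. The smallest p-values were those of Recql4, a helicase needed for origin firing (-1.68 ± 0.17), Asf1b, a histone chaperone (-1.62 ± 0.16), and Top2a, the topoisomerase that untangles copied strands (-1.25 ± 0.13). Rbl1, Chaf1a, Gins2, Chaf1b, Clspn, Dbf4 and Dctd were among the others that fell. E2f8, a repressor of the E2F family, was the gene that rose. It read 1.83, 1.67, 3.29 and 0.87, a mean of 1.92 ± 0.35 (adjusted p = 0.0185, limma), higher on all 4 arrays.

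Markers of dividing cells and of several liver cell types moved beside the replication genes. Of all genes tested, 6.08% fell and 3.69% rose. The sums below are of linear signals, in which the brightest markers weigh most. A marker missing on an array is left out of its sums there, so a range can mix different sets of markers. Array 3 had 6 of 7 stellate and fibroblast markers and 3 of 4 cholangiocyte markers. Arrays 1 and 3 each had 8 of 9 macrophage and monocyte markers. Of 6 proliferation markers 5 were measured and all 5 fell. They were Mki67 (-2.24 ± 0.18), Cdk1 (-1.95 ± 0.22), Ccnb1 (-1.68 ± 0.19), Bub1 and Top2a, which is also counted among the other pathway genes. Their summed signal was 3540 to 5042 in the control livers and 1079 to 1447 in the livers labelled Plin2-ASO. Of 7 stellate and fibroblast markers 5 fell (Col1a1, Col1a2, Col3a1, Dcn and Lrat), and their sum was 88328 to 176189 against 34268 to 46990. Cholangiocyte markers fell in 2 of 4 measured (Krt19 and Spp1), with sums of 23581 to 43604 against 7377 to 12694. The 2 other cholangiocyte markers measured had mean log2 ratios above 0, the higher at 0.32, and were not called. Among 9 macrophage and monocyte markers Cd68, Csf1r and Itgam fell and Cd163, Clec4f, Marco and Vsig4 rose, and the sums overlapped (18315 to 26971 against 19298 to 43353). Elsewhere, Alb fell among 7 hepatocyte markers, S100a9 among 5 neutrophil markers and Pecam1 among 6 endothelial markers. None of 4 T- and NK-cell markers was called, at an adjusted p under 0.05 in limma, and 1 had an unadjusted p under 0.05. Alas2 and Klf1 rose among 3 erythroid markers, and Cfd rose among 4 adipocyte markers. The median log2 ratio of these adipocyte markers was 0.29, -0.09, 3.03 and 0.36 on arrays 1 to 4, so array 3 stood apart. Their sum was 923 to 1135 in the control livers and 1360 to 25533 in the others. The part of these cell types in the lower replication genes was not tested.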

How the data were processed

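Spot intensities were read from the scanner files as deposited (the mean signal and the local background of each spot, Agilent Feature Extraction 9.5.1.1 per the file headers). The deposited log10 ratios of these files, red over green after the software's own background and dye correction, served as an alternative only. A series table that the authors deposited equals them on the log2 scale for 41174 probes, to within 6.22e-15, so its scale and direction are known, and the median of each column is 0. Per the labels' protocols, total RNA was amplified and coupled to Cy3 or Cy5. The 4 arrays share 1 slide and 1 scan.

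The limma package (3.58.1, in R 4.3.3, with statmod 1.5.0 and the package data.table, version 1.17.8) was used for normexp background correction at an offset of 50 and for loess within arrays, in which control spots had no weight. An outlier mark in either channel made a spot missing, and repeated spots were averaged by probe. Probes well above background on at least 3 of 4 arrays in 1 channel were kept. A gene was read by its brightest kept probe measured on at least 3 arrays. The filter passed 18638 genes, of which 597 were measured on too few arrays and 18041 were tested. The mean log2 ratio was tested against 0 (intercept model, moderated variance, two-sided, 7.21 total degrees of freedom) with Benjamini-Hochberg adjustment over all genes at 0.05. "Fell" and "rose" mean past that threshold. Normalized log2 signals of each channel are after loess and Aquantile. No spot was saturated. The number of arrays limits the precision, and the replicates are 4 mice a group. Each array pairs a mouse of either group, and that pairing is part of the ratio. The fit was run on simulated ratios with independent noise for each gene and array. That checks the code and not the p-values of these arrays, whose ratios are correlated.

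Names came from the RefSeq table of GRCm38.p6, used for symbols only: 22951 probes matched by their accession, 131 by another accession, 6582 by symbol and 3069 by older symbol, while 8441 were left with the deposited name. Probe positions are in mm7. The members, roles, other pathway genes and marker lists were chosen with earlier results of these data known. Members called are given on every array, as are those not called whose probes differ in sign or whose call changes when an array is left out. The 3 other pathway genes of smallest p are named, and others were named after their values were seen. Some genes of these lists are not reported here.

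The alternatives were an offset of 16, raw mean signals, median centring, scaling between arrays, the software's ratio, the series table, no filter or a strict filter on dim probes, the mean of kept probes, keeping outlier spots, array quality weights, a robust variance trend, separate channels, channels as independent samples, a correction for probe GC, and leaving out each array.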

Additional observations from a re-analysis of the deposited data

Results flagged for a closer look

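The spread over the 4 arrays was examined for the 41 members measured on all of them, by the gap of the highest or lowest array to its nearest neighbour as a share of the range (Dixon's test at 95%). Cdc7, the kinase of origin firing, read -0.17 on array 3, against 0.26 to 0.30 on the others. Pold1, the catalytic subunit of polymerase delta, read -0.43 on array 3, against -1.14 to -1.12 on the others. Both values that stood apart, 2 of 41 members, were thus on array 3, and chance marks about 5% of such groups.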

How the results depend on the processing

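Over 15 processing alternatives the number of members that fell was 15 to 27, where 3.83% to 23.5% of all genes fell. The count of 15 came with the series table (4.61% of all genes fell) and that of 27 with array quality weights (23.5%). Of the 18 called members, 11 kept their call in each alternative. Mcm2, Mcm4, Mcm5, Mcm7, Orc6, Dnmt1 and E2f1 lost it in at least 1, and no called member changed direction. The median log2 ratio of the members stayed below 0 in all of them. With each array left out in turn, 4 to 29 members fell and none rose, where 1.15% to 20.3% of all genes fell. In the same fits 4 to 19 of the other pathway genes fell and 0 to 2 rose. Array quality weights gave array 3 a weight of 0.216 and the others 0.839 to 2.85. With them 1 member, Tk1, rose (0.37, adjusted p = 0.0201, limma), 23 other pathway genes fell and 4 rose. Of all 18041 genes, 23.5% fell and 2812 rose with these weights. The strict filter on dim probes left 7 other pathway genes that fell, with fewer genes tested, where 5.6% of all genes fell. Channels as independent samples, without the pairing of mice on an array, gave 16 members that fell, where 6.61% of all genes fell.

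Members near 0, none called with all 4 arrays, changed sign. Cdc45 was at -0.00796 with an offset of 16, -0.031 with median centring and -0.0072 with the probe GC correction, and -0.15 to 0.17 with an array left out. Orc2 was at 0.042 in the software's ratio and in the series table, and -0.23 to 0.062 with an array left out. Orc4 was at 0.047 with median centring and 0.089 as the mean of kept probes, and -0.43 to 0.18 with an array left out. Orc5 was at -0.071 with array quality weights and -0.091 to 0.078 with an array left out. Pola1 was at -0.51 to 0.065 with an array left out. The cause was not tested. Dim probes limit Cdc45, Cdc6, Orc1 and Pole2. The pairing of mice on an array is part of the ratio tested. Separate channels with the intraspot correlation, which keep that pairing, gave 18 of 41 members that fell, where 8.61% of all genes fell. These were not the same 18: Mcm2 and E2f1 lost the call, and Rfc4 and Dut gained it.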
